A study of Mus musculus with 18 samples.

Results

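The collagen genes were taken as the protein-coding genes whose symbol reads Col, a number, the letter a and a number, with symbols from GENCODE release M21 on GRCm38. Of the 48023 genes in the table, 44 met this rule. 33 of the 44 carried enough counts for a test, against 15071 genes tested in all. The cells were immortalized murine brown preadipocytes, precursors of brown fat made into a line with the SV40 T antigen, and they received vehicle (Veh) or FGF6, a paracrine fibroblast growth factor, for 4, 8, or 24 h. All 6 groups came from this line, the labels give no dose, and each group held 3 libraries, 18 in all. Nothing in the labels says that the libraries came from separate cultures, so p-values measure only the spread between these libraries, which may be technical.

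A collagen molecule is a trimer of alpha chains wound into a triple helix, and each Col gene encodes an alpha chain. Fibrillar collagens (types I, II, III, V, XI, XXIV, and XXVII) form the fibrils of connective tissue, type IV forms the network of basement membranes, and type VI forms beaded filaments around cells. The FACIT collagens sit on the surface of fibrils, types VIII and X are short chains that form lattices, the multiplexins (XV and XVIII) lie at basement membranes, and a few collagens cross the plasma membrane. Fat cell precursors secrete a fibrillar, fibroblast-like matrix, and this matrix is remodeled toward a basement membrane as fat cells mature.

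Total counts ranged from 24327816 to 33471980 per library. The label of the cells was checked against marker genes. All 8 preadipocyte and stromal markers (such as Pdgfra, Ly6a, Ebf2, and Pparg) were expressed, and their summed level was 1239 to 1296 CPM (the count of a gene scaled by the TMM-normalized library total) in Veh 4 h, 966 to 1008 in FGF6 4 h, 1346 to 1368 in Veh 8 h, 803 to 874 in FGF6 8 h, 1416 to 1469 in Veh 24 h, and 410 to 426 in FGF6 24 h. Cd34 alone among the 8 was higher with FGF6 at 24 h, with means of 16.5 and 42.96 CPM. The 6 markers of mature adipocytes summed to 156 to 178 CPM in Veh 24 h and to 63.4 to 70.1 CPM in FGF6 24 h. Nearly all of this was Fabp4, with means of 160.1 and 66.9 CPM. Cidec, Plin1, and Adipoq were scarce, at most 137, 60, and 23 counts in a library, and were also lower with FGF6 at 24 h, while Lep had no count and Cidea at most 1. The 4 markers of macrophages and leukocytes summed to 6.39 to 7.92 CPM in Veh 24 h and to 3.32 to 3.97 CPM in FGF6 24 h, of which Cd68 reached 523 counts and Csf1r 128 counts in a library at other times, and Ptprc and Adgre1 never passed 2 counts. At 4 h the sum of these 4 was instead higher with FGF6, 14.2 to 15.2 CPM with vehicle and 17.6 to 18.4 CPM with FGF6. Cd68 was then higher with FGF6 and Csf1r lower. The 4 endothelial markers summed to 0.965 to 1.296 CPM in Veh 24 h and to 3.71 to 5.65 CPM in FGF6 24 h, and the 3 epithelial markers to at most 1.395 CPM in any library. Most of the endothelial sum in FGF6 24 h was Cdh5, with means of 0.058 and 3.59 CPM. The 4 skeletal muscle markers summed to 5.74 to 6.68 CPM in Veh 24 h and to 1.60 to 2.13 CPM in FGF6 24 h. Of these, Myog reached 153 counts and Myod1 111 counts in a library at other times. The 3 myofibroblast markers, Acta2, Tagln, and Cnn1, summed to 699 to 708 CPM in Veh 24 h and to 101 to 106 CPM in FGF6 24 h. These marker levels moved with many of the collagen values given here, and their part in them was not tested. In bulk RNA, fewer cells of a type and less RNA per cell cannot be told apart.

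Veh 24 h library 3 stood apart from the other 2 libraries of its group. A chi-square of its counts against theirs was 34.5 and 37.6 per degree of freedom, while every other pair within a group lay between 2.34 and 7.05. 8 genes made up 87.3% of the chi-square over the 3 libraries, among them CT010467.1 (148, 141, and 10583 CPM) and the mitochondrial ribosomal RNA mt-Rnr2 (438, 455, and 1566 CPM). Without this library, 10928 genes in all were called at 24 h. Of the collagens, 4 rose and 23 fell. The call lost was that of Col11a2, a fibrillar chain, whose log2 fold change went from −0.50, FDR 0.0272, to −0.39, FDR 0.111. The median shift of the 33 tested collagens was 0.045 on the log2 scale.

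FGF6 lowered the collagen share of the RNA, mildly at 4 and 8 h and steeply at 24 h. All 44 genes together took 2.28, 2.22, and 2.13% of the counts in Veh 4 h and 1.99, 1.93, and 1.93% in FGF6 4 h. At 8 h the shares were 2.53, 2.51, and 2.40% with vehicle and 1.82, 1.77, and 1.78% with FGF6. At 24 h they were 2.39, 2.55, and 2.42% with vehicle and 0.653, 0.671, and 0.693% with FGF6. The groups did not overlap at any time. An exact permutation test of 3 against 3 libraries cannot go below a two-sided p of 0.1, and no test was run on the shares. On the TMM-scaled total the difference at 4 h shrank from −0.263 to −0.118 percentage points.

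**Figure D1:**
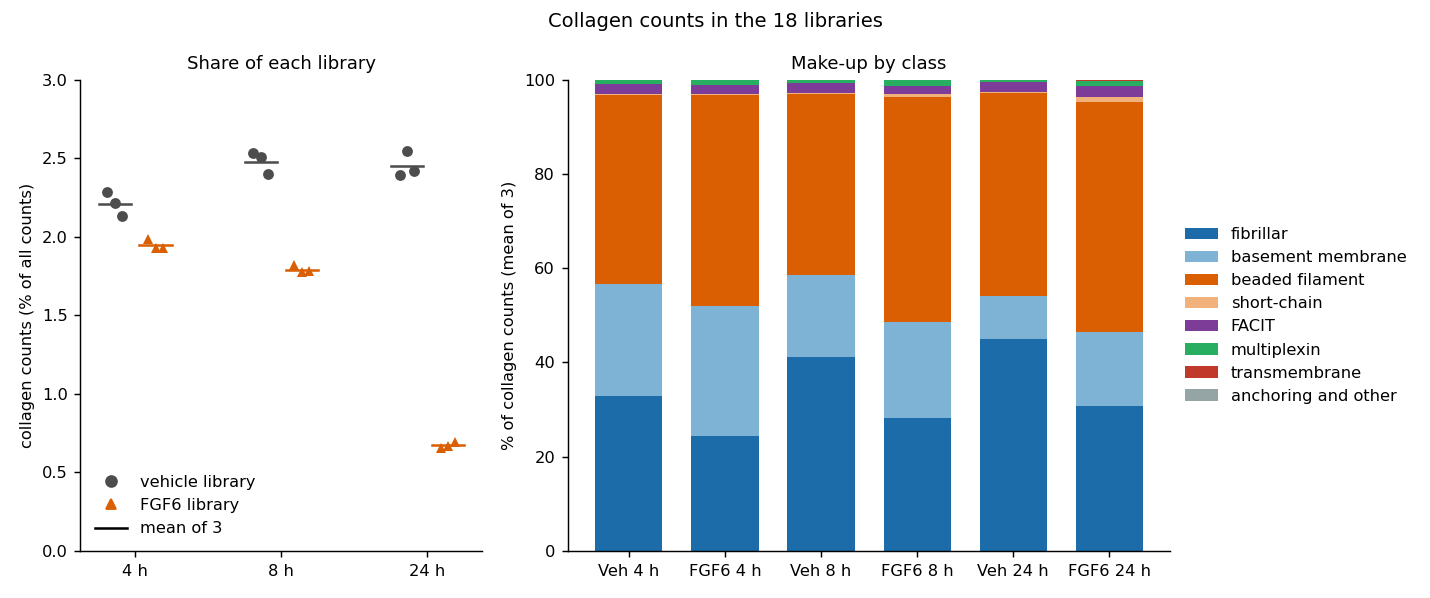
Left, counts of the 44 collagen genes as a percent of all counts, 1 point per library with the group mean as a line, at 4, 8, and 24 h. Right, the make-up of the collagen counts by class, as the mean of 3 libraries per group. With FGF6 at 24 h the share lay between 0.653 and 0.693%, below every vehicle library, and fibrillar collagens fell from 45.0 to 30.8% of the collagen counts.

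Of the 33 tested collagens, 9 rose and 14 fell at 4 h at an FDR under 0.05 (edgeR quasi-likelihood test, Benjamini-Hochberg adjustment over all 15071 genes), while 28.6% of all tested genes rose and 34.2% fell. At 8 h 8 rose and 20 fell, while 32.4% of all tested genes rose and 38.4% fell. At 24 h 4 rose and 24 fell, against 35.9 and 37.9% of all tested genes. The shares that fell were thus 42.4, 60.6, and 72.7% of the tested collagens at the successive times. The median log2 fold change of the 33 was −0.095, −0.41, and −1.14 at 4, 8, and 24 h, while that of all tested genes was −0.048, −0.050, and −0.022.

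With a change of at least 2-fold as a further condition, 2 collagens rose and 2 fell at 4 h (4.96 and 6.38% of all tested genes), 4 rose and 7 fell at 8 h (7.39 and 10.9%), and 2 rose and 18 fell at 24 h (7.44 and 15.3%). The 3 FGF6 libraries lay wholly above the 3 vehicle libraries for 12 collagens at 4 h, 7 at 8 h, and 4 at 24 h, and wholly below them for 14, 21, and 23, where 30.1, 34.2, and 36.7% of all tested genes lay wholly above and 36.1, 39.6, and 38.1% wholly below. The 11 untested collagens, among them Col4a3, Col4a4, Col9a1, and Col13a1, had at most 12 counts in any library.

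14 collagens fell at all 3 times, namely Col1a1, Col1a2, Col3a1, Col4a5, Col4a6, Col5a1, Col5a2, Col6a1, Col6a2, Col8a2, Col11a1, Col12a1, Col16a1, and Col27a1. Of all tested genes, 23.0% did so. Col8a1, Col10a1, and Col17a1 rose at all 3 times, as did 20.4% of all tested genes. Col5a3, Col6a3, and Col15a1 rose at 4 and 8 h and fell at 24 h, a pattern of 1.31% of all tested genes. Col4a1 rose at 4 h and fell later, Col18a1 rose at 4 h and fell at 8 h, and Col28a1 fell at 8 h and rose at 24 h. The calls of Col18a1 at 4 and 8 h and of Col4a1 at 8 h were lost in some alternatives, given below. Col24a1 was the tested collagen that passed at no time, and it stayed at or below 0.447 CPM in all 18 libraries.

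**Figure D2:**
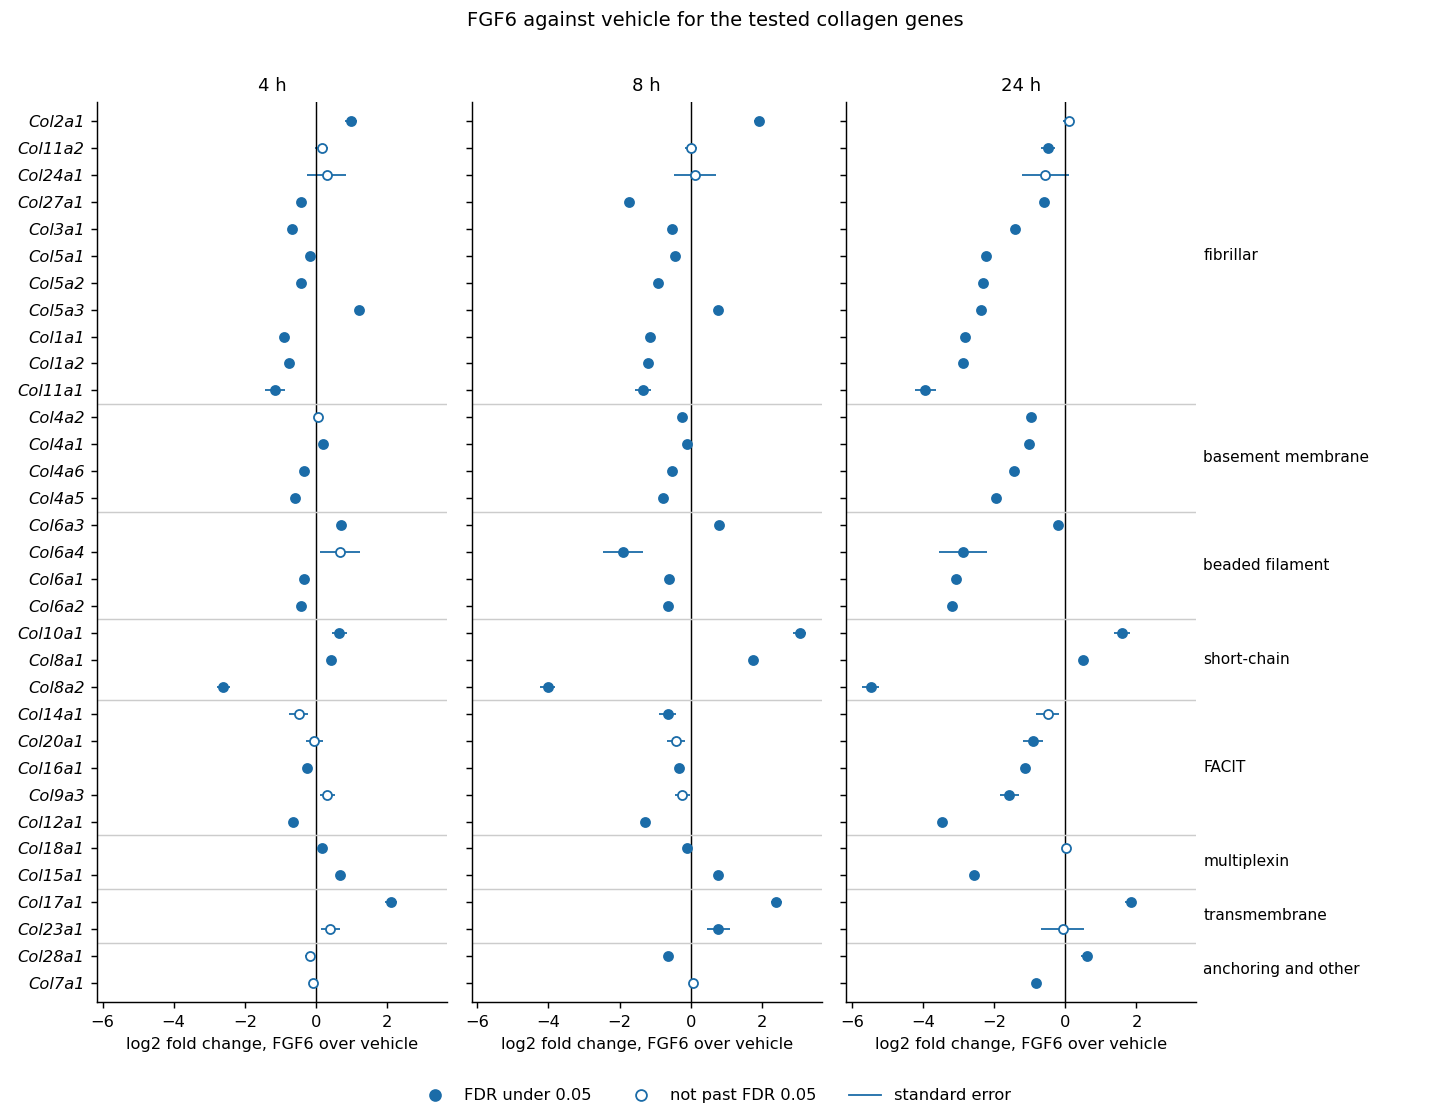
Log2 fold change of FGF6 over vehicle (points) with its standard error (bars) for the 33 tested collagens at 4, 8, and 24 h, grouped by class. Filled points have an FDR under 0.05. At 24 h all points of the fibrillar, basement membrane, and beaded filament classes but those of Col2a1 (0.10) lie below 0, and Col8a2 lies farthest left at −5.47.

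All 11 fibrillar collagens could be tested, of which 2 rose and 7 fell at 4 h, 2 rose and 7 fell at 8 h, and 9 fell at 24 h, to be read against the shares of all tested genes given above. Type I collagen, the main fibril former, is built from Col1a1 and Col1a2. Col1a1 measured 2382, 2251 and 2079 CPM in the Veh 4 h libraries and 1242, 1195 and 1154 CPM with FGF6. At 24 h it measured 3052, 3278 and 2990.4 CPM with vehicle and 418, 431 and 482 CPM with FGF6, so that every FGF6 library lay far below every vehicle library. The log2 fold change was −0.90 ± 0.051 (SE) at 4 h, −1.15 ± 0.051 at 8 h, and −2.81 ± 0.054, FDR 5.06e-24 at 24 h, a 7.01-fold decrease.

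Col1a2 measured 4025, 4350.3 and 4203 CPM in Veh 24 h and 538, 560.0 and 622 CPM in FGF6 24 h, again with a wide gap between the groups. Its log2 fold changes were −0.77 ± 0.041, −1.21 ± 0.041, and −2.87 ± 0.044, FDR 4.50e-26. The transcripts of the type I chains thus fell side by side. The ratio of Col1a1 to Col1a2, per length of the annotated coding transcript, was 0.668 with vehicle and 0.698 with FGF6 at 24 h. The value turned on the length used, since the union of all annotated exons gave 1.403 and 1.46, while the change between the groups does not depend on it.

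Col3a1, whose product forms homotrimers that join type I fibrils, fell less. It measured 616, 640.1 and 667 CPM in Veh 4 h and 418, 393 and 398 CPM in FGF6 4 h. By 24 h the vehicle libraries held 1642, 1796 and 1777 CPM and the FGF6 libraries 663, 633 and 646 CPM. The FGF6 libraries at 24 h were thus near the level of the vehicle libraries at 4 h, and Col3a1 had risen in the vehicle cells over the same time (log2 fold change 1.44 ± 0.035, FDR 9.85e-21, 24 h against 4 h). FGF6 against vehicle gave −0.67 ± 0.035, −0.51 ± 0.035, and −1.42 ± 0.035, FDR 7.43e-22. The ratio of Col3a1 to Col1a1 per length was 0.573, 0.584, and 0.633 in Veh 24 h and 1.69, 1.57, and 1.43 in FGF6 24 h. With the union of exons the means were 0.374 and 0.978. A transcript named Gm47302 shares 141 exonic bases of the same strand with Col3a1.

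Type V collagen sits inside type I fibrils and sets their width, and is built from Col5a1 and Col5a2, or also Col5a3. Col5a2 measured 1375, 1444 and 1433 CPM in Veh 24 h and 287, 287 and 288 CPM in FGF6 24 h (log2 fold change −2.30 ± 0.036, FDR 1.00e-25). Col5a1 measured 519, 539 and 510.3 CPM in Veh 24 h and 111, 108 and 117 CPM in FGF6 24 h (log2 fold change −2.22 ± 0.05, FDR 1.32e-22). Both chains fell at every time, but the fall of Col5a1 at 4 h was small, −0.17 ± 0.047, FDR 0.00351, and was −0.13 with an FDR of 0.0520 without FGF6 4 h library 2. Col5a1 shares 212 exonic bases with genes on the opposite strand.

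Col5a3 moved the other way at first. It measured 318, 323 and 301 CPM in Veh 4 h and 707, 743 and 728 CPM in FGF6 4 h, with every FGF6 library over every vehicle library. At 8 h it measured 189, 193 and 187 CPM with vehicle and 323, 312 and 329 CPM with FGF6. At 24 h it measured 154, 171 and 164 CPM with vehicle and 32.02, 32.1 and 30.9 CPM with FGF6, so the groups had changed places. The log2 fold change went from 1.21 ± 0.037, FDR 1.86e-19, through 0.76 ± 0.037, to −2.36 ± 0.042, FDR 8.83e-25, and the effects at 24 and 4 h differed by −3.57 ± 0.056, FDR 1.02e-24 in the interaction test.

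Col2a1, the fibril collagen of cartilage, was scarce, rose at 4 and 8 h, and did not pass at 24 h. It measured 2.65, 3.401 and 2.46 CPM in Veh 8 h and 10.8, 10.7 and 11.01 CPM in FGF6 8 h. By 24 h the levels were 2.77, 2.93 and 1.98 CPM with vehicle and 2.92, 2.61 and 2.79 CPM with FGF6, and the groups overlapped. Its log2 fold changes were 0.99 ± 0.17, 1.92 ± 0.13, FDR 1.88e-12, and 0.10 ± 0.16, FDR 0.601, and the effects at 24 and 8 h differed by −1.83 ± 0.21, FDR 1.00e-07. Sox9, the transcription factor that drives Col2a1 in cartilage, had means of 38.02, 28.1, and 33.6 CPM with vehicle and 259, 239, and 204 CPM with FGF6 at 4, 8, and 24 h. The rest of the chondrocyte and osteoblast markers, Acan, Sp7, Bglap, and Ibsp, reached at most 14 counts in a library, and Ibsp had none.

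Col11a1, a partner of type II and type V chains, fell strongly at low level. It measured 4.97, 5.52 and 4.08 CPM in Veh 24 h and 0.365, 0.5001 and 0.0734 CPM in FGF6 24 h, or 422 counts over the vehicle libraries and 26 over the FGF6 libraries. Its log2 fold changes were −1.16 ± 0.27, −1.33 ± 0.22, and −3.94 ± 0.29, FDR 6.17e-12. Col27a1, a fibrillar collagen of cartilage and other tissues, fell most at 8 h, where it measured 20.9, 21.7 and 21.5 CPM with vehicle and 6.28, 6.86 and 6.16 CPM with FGF6. It fell by less at 24 h (−0.59 ± 0.12) than at 8 h (−1.73 ± 0.086), with an interaction of 1.14 ± 0.15, FDR 7.15e-07, and the vehicle level itself had dropped to 6.2003, 5.88 and 4.84 CPM by 24 h.

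**Figure D3:**
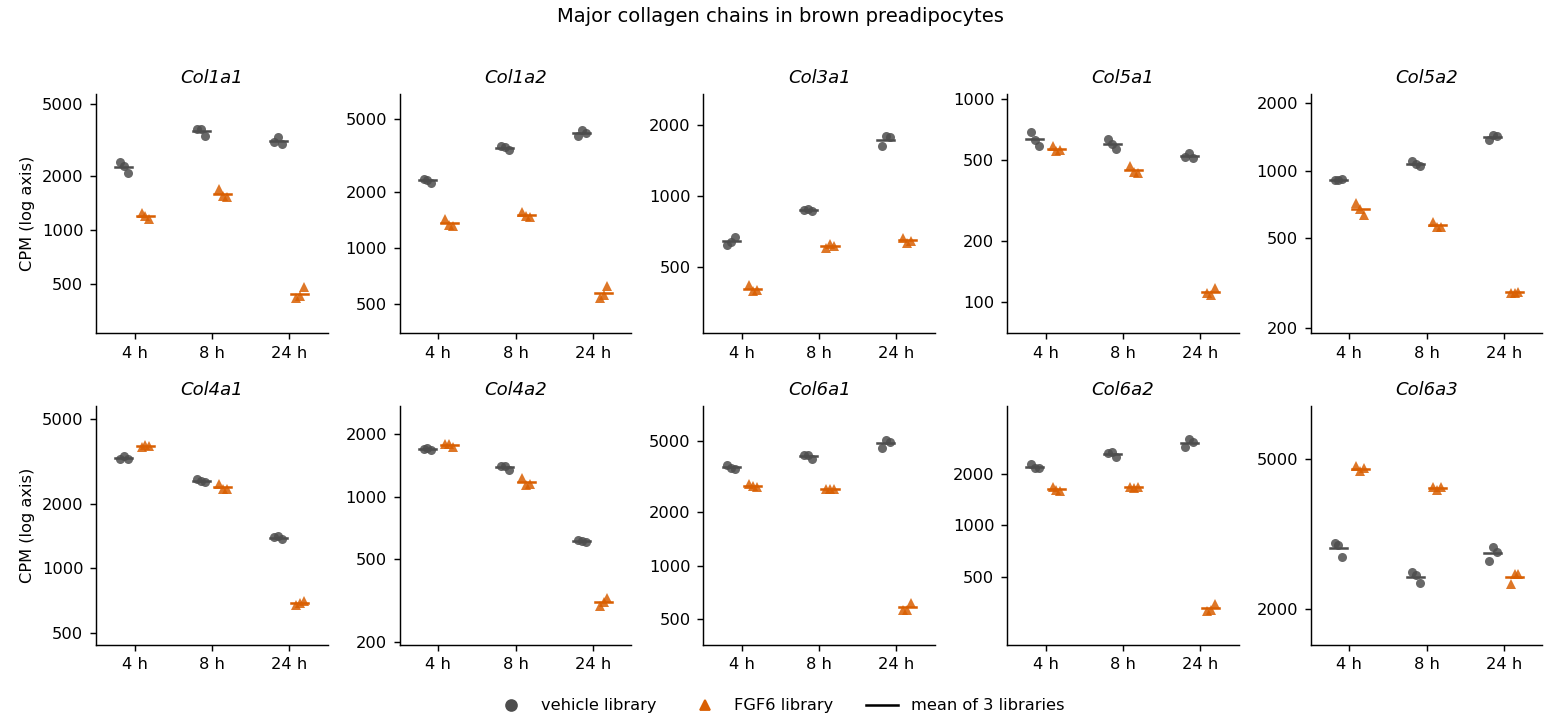
CPM (log axis, its range set per panel) of 10 major collagen chains in each library at 4, 8, and 24 h, with group means as lines. Col1a1, Col1a2, Col6a1, and Col6a2 drop far below vehicle with FGF6 at 24 h, while Col6a3 lies above vehicle at 4 and 8 h and just below it at 24 h.

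Type VI collagen is assembled from one chain each of Col6a1, Col6a2, and a long chain, mostly Col6a3, and the beaded filament genes held 43.2% of the collagen counts in Veh 24 h and 48.9% in FGF6 24 h. Col6a1 measured 4589, 5066 and 4971 CPM in Veh 24 h and 565, 567 and 618 CPM in FGF6 24 h. Col6a2 measured 2853, 3174 and 3058 CPM in Veh 24 h and 318, 323 and 349 CPM in FGF6 24 h. In both genes all FGF6 libraries were below all vehicle libraries at each time. The log2 fold changes of Col6a1 were −0.34 ± 0.033, −0.61 ± 0.033, and −3.06 ± 0.036, FDR 3.38e-28. Those of Col6a2 were −0.43 ± 0.036, −0.64 ± 0.036, and −3.20 ± 0.04, FDR 7.12e-28.

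Col6a3 did not follow them. It measured 2994, 2951 and 2747 CPM in Veh 4 h and 4777, 4637 and 4735 CPM in FGF6 4 h. At 8 h it measured 2513, 2458 and 2343 CPM with vehicle and 4225, 4134 and 4227 CPM with FGF6. The 24 h libraries held 2680.3, 2926 and 2833 CPM with vehicle and 2338, 2476 and 2472 CPM with FGF6, so the FGF6 libraries lay above vehicle at 4 and 8 h and slightly below it at 24 h. The log2 fold changes were 0.70 ± 0.033, FDR 9.62e-16, 0.78 ± 0.033, and −0.21 ± 0.032, FDR 2.12e-06, and the effects at 24 and 4 h differed by −0.91 ± 0.046, FDR 1.04e-14.

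The balance between the transcripts of the type VI chains therefore shifted, while the proteins were not measured here. Per length of the coding transcript, the ratio of Col6a3 to Col6a1 was 0.331, 0.341, and 0.318 in Veh 4 h and 0.676, 0.675, and 0.694 in FGF6 4 h. At 24 h it was 0.237, 0.234, and 0.231 with vehicle and 1.68, 1.77, and 1.62 with FGF6, a 7.22-fold difference of the means of the log ratios. The ratio of Col6a1 to Col6a2 moved far less, from 1.55 with vehicle to 1.70 with FGF6 at 24 h. With the union of exons the ratio of Col6a3 to Col6a1 at 24 h was 0.211 and 1.53, and that of Col6a1 to Col6a2 was 3.06 and 3.36. 6 ratios of chain pairs were compared at 3 times, 18 comparisons in all. An exact two-sided permutation test gave the smallest possible p of 0.1 (0.106 after Benjamini-Hochberg adjustment over the 18) for all of them but Col5a1 to Col5a2 at 24 h, where the groups overlapped and both values were 0.2.

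**Figure D4:**
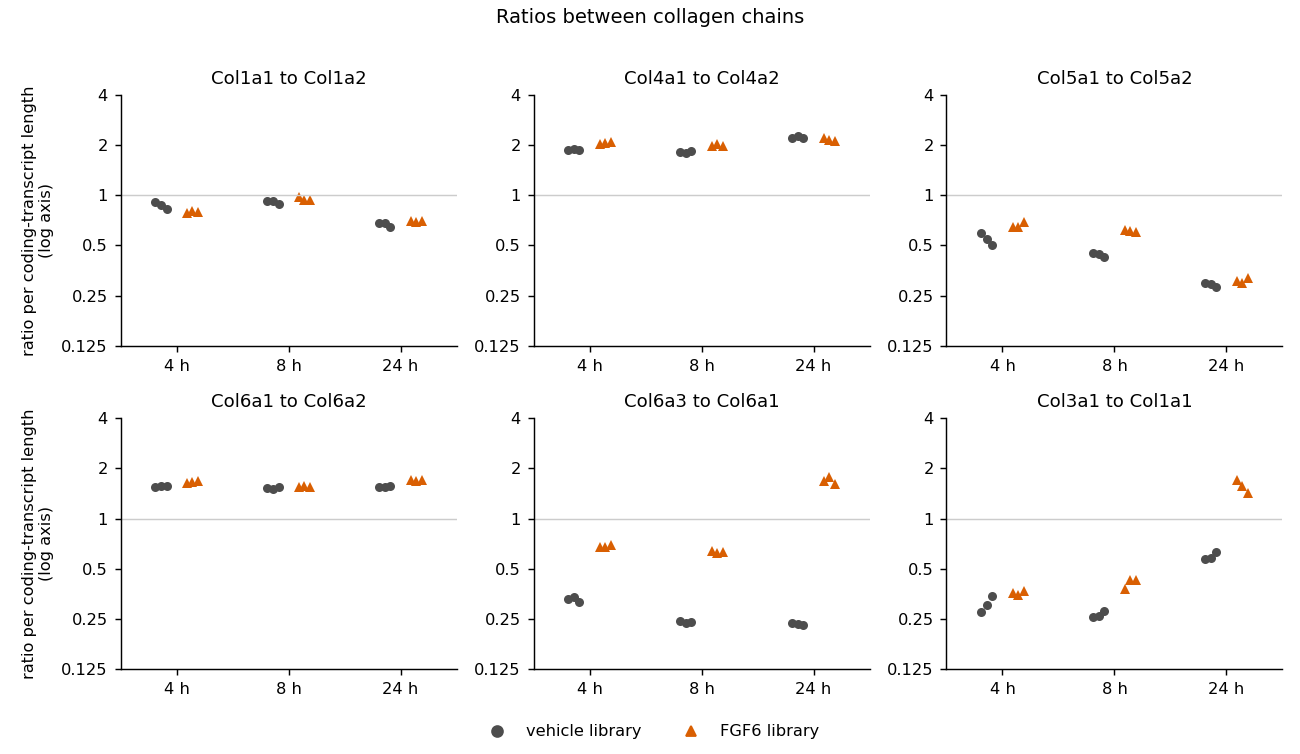
Ratio of the CPM of chain pairs, each divided by the length of its coding transcript, in each library at 4, 8, and 24 h (log axis). The ratio of Col6a3 to Col6a1 rises from at most 0.237 with vehicle to at least 1.62 with FGF6 at 24 h, and the ratio of Col6a1 to Col6a2 stays between 1.51 and 1.71.

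Because the type VI chains parted, the bases before their start sites are shown (RefSeq on GRCm38.p6, minus strand, 5′ to 3′), in lower case with searched motifs in capitals. Col6a2 and Col6a1 lie 85162 bases apart on chromosome 10 and Col6a3 lies on chromosome 1. The Col6a2 stretch is chr10:76623631-76623880, the Col6a3 stretch is chr1:90843972-90844221, and the Col6a1 stretch is chr10:76726169-76726294, which ends where the first exon of GENCODE begins.
Col6a1: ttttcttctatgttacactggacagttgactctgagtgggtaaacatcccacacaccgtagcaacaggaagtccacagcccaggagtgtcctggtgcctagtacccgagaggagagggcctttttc
Col6a2: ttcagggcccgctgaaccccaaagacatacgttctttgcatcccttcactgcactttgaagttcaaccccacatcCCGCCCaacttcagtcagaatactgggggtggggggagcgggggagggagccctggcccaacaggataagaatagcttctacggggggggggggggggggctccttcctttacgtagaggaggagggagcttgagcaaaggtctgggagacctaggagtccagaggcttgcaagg
Col6a3: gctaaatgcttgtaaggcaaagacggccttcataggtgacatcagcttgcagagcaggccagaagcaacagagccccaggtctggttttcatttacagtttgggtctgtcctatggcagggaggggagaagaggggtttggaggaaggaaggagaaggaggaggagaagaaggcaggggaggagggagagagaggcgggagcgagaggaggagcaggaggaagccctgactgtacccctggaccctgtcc
The motifs searched, on both strands of the 250 bases before each start site, were the CCAAT box (CCAAT), the GC box (GGGCGG), the TATA box (TATAAA), the AP-1 site (TGANTCA), and the core of SOX sites (ACAAAG). The matches marked here do not overlap one another. The marked Col6a2 motif is a GC box read on the other strand. RefSeq has another start of Col6a2, 226 bases farther downstream, whose window lies partly in the first exon of GENCODE, is not shown, and held 3 GC boxes, 2 of which overlap. The 250 bases of Col6a1 held an AP-1 match, TGACTCA, 84 to 90 bases before the RefSeq start and inside the first exon of GENCODE, so it is not in the stretch shown. It was the only AP-1 match in the 38 windows found for 35 of the 44 collagens, and 6.75% of all 32851 windows held one. Col6a3 held none of these letters.

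Across those 38 collagen windows, 22 (57.9%) held a GC box, against 32.7% of all windows. 13 (34.2%) held a CCAAT box, against 33.8%. The TATA box was in 5 (13.2%), against 12.4% of all windows, and the SOX core in 4 (10.5%), against 16.5%. A match is a description of the letters and not a binding site. Windows of Col3a1, which at 24 h fell least among Col1a1, Col1a2, Col3a1, Col5a1, and Col5a2, Col5a3, which turned, and Col10a1, which rose most at 8 h, are shown for comparison: Col3a1 at chr1:45311288-45311537 on the plus strand, Col5a3 at chr9:20815068-20815317 on the minus strand, and Col10a1 at chr10:34389731-34389980 on the plus strand.
Col3a1: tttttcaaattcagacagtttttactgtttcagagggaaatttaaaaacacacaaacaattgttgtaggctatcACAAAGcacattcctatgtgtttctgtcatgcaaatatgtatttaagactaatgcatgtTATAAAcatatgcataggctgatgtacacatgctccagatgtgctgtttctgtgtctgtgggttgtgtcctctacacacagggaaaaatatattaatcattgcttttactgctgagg
Col5a3: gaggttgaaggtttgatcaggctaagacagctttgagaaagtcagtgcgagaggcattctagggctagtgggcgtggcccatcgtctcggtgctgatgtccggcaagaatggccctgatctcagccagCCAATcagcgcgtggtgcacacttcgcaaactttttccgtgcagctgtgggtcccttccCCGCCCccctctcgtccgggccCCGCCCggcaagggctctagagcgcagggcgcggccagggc
Col10a1: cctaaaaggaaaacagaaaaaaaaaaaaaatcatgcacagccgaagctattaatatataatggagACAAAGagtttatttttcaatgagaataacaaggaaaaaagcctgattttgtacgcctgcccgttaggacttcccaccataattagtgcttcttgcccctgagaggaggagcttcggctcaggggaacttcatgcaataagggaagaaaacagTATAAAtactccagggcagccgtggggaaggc
Col10a1 carries TATAAA 27 to 32 bases before its start and a SOX core match 180 to 185 bases before it. Col3a1 carries the same pair of motifs, at 112 to 117 and 171 to 176 bases before its start, and Col5a3 carries a CCAAT box and a pair of GC boxes.

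Type IV collagen, the sheet of basement membranes, is built mostly from Col4a1 and Col4a2, which lie head to head on chromosome 8 and overlap at their starts by 22 bases. Col4a1 measured 3251, 3356 and 3236 CPM in Veh 4 h and 3708, 3791 and 3739 CPM in FGF6 4 h. After 24 h the vehicle libraries had 1399, 1417 and 1371 CPM and the FGF6 libraries 672, 690.2 and 704 CPM. FGF6 libraries were thus slightly above vehicle at 4 h and well below it at 24 h. The log2 fold changes were 0.19 ± 0.025, FDR 2.97e-07, −0.10 ± 0.025, FDR 8.31e-04, and −1.02 ± 0.025, FDR 9.43e-22. The fall at 8 h was −0.041 with an FDR of 0.189 without FGF6 8 h library 3.

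Col4a2 measured 619, 613 and 606 CPM in Veh 24 h and 298, 313 and 326 CPM in FGF6 24 h. Its log2 fold changes were 0.063 ± 0.032, FDR 0.0871, −0.24 ± 0.032, and −0.97 ± 0.032, FDR 3.75e-19. The value at 4 h passed in 7 of the alternatives. Among them were limma-voom (FDR 0.0492), DESeq2 (FDR 0.0178), and the threshold of an FDR under 0.25. The ratio of Col4a1 to Col4a2 per length was 2.22 with vehicle and 2.15 with FGF6 at 24 h. Both genes also fell with time in vehicle cells, by 2.35-fold and 2.78-fold from 4 to 24 h. Col4a5 and Col4a6, a neighboring pair 1309 bases apart on the X chromosome, rose with time in vehicle cells and fell with FGF6 at every time, reaching −1.94 ± 0.035, FDR 1.56e-24 and −1.45 ± 0.082, FDR 2.58e-14. Together, 1 of 4 tested basement membrane collagens rose and 2 fell at 4 h, and all 4 fell at 8 and 24 h. Of all tested genes, 28.6% rose and 34.2% fell at 4 h, and 38.4 and 37.9% fell at 8 and 24 h. Since strand use in counting is not stated, reads of the bases that Col4a1 and Col4a2 share cannot be assigned.

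The short chains split. Col8a1 and Col8a2 encode the chains of type VIII collagen, which forms lattices in vessel walls and under the corneal endothelium. Col8a2 measured 3.405, 3.49 and 3.94 CPM in Veh 4 h and 0.629, 0.574 and 0.569 CPM in FGF6 4 h. The levels at 24 h were 6.06, 6.66 and 5.47 CPM with vehicle and 0.109, 0.107 and 0.184 CPM with FGF6. It fell at every time, with log2 fold changes of −2.60 ± 0.19, FDR 7.28e-12, −4.02 ± 0.22, and −5.47 ± 0.24, FDR 8.61e-17. The 24 h libraries held 524 counts with vehicle and 11 with FGF6, a ratio of 46.1 with an exact 95% interval of 25.5 to 92.8 that covers counting error only.

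Col8a1 rose instead. It measured 21.9, 21.2 and 18.998 CPM in Veh 8 h and 70.6, 70.3 and 69.4 CPM in FGF6 8 h. By 24 h vehicle had 49.2, 38.3 and 38.7 CPM and FGF6 had 59.6, 59.5 and 60.1 CPM, still without overlap. Its log2 fold changes were 0.42 ± 0.076, 1.76 ± 0.073, FDR 5.57e-17, and 0.51 ± 0.069.

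Col10a1, the short chain of hypertrophic cartilage, rose most of all members at 8 h, from 1.29, 1.21 and 1.16 CPM to 9.51, 10.1 and 11.3 CPM. Its 24 h levels were 0.701, 0.784 and 1.09 CPM with vehicle and 2.66, 2.79 and 2.28 CPM with FGF6. The log2 fold changes were 0.65 ± 0.2, FDR 0.00743, 3.06 ± 0.18, FDR 4.25e-14, and 1.60 ± 0.23, FDR 6.12e-07, and the groups overlapped at no time. The rise at 4 h was 0.41 with an FDR of 0.0736 without Veh 4 h library 1. Nt5dc1, on the opposite strand, shares 18 exonic bases with Col10a1.

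**Figure D5:**
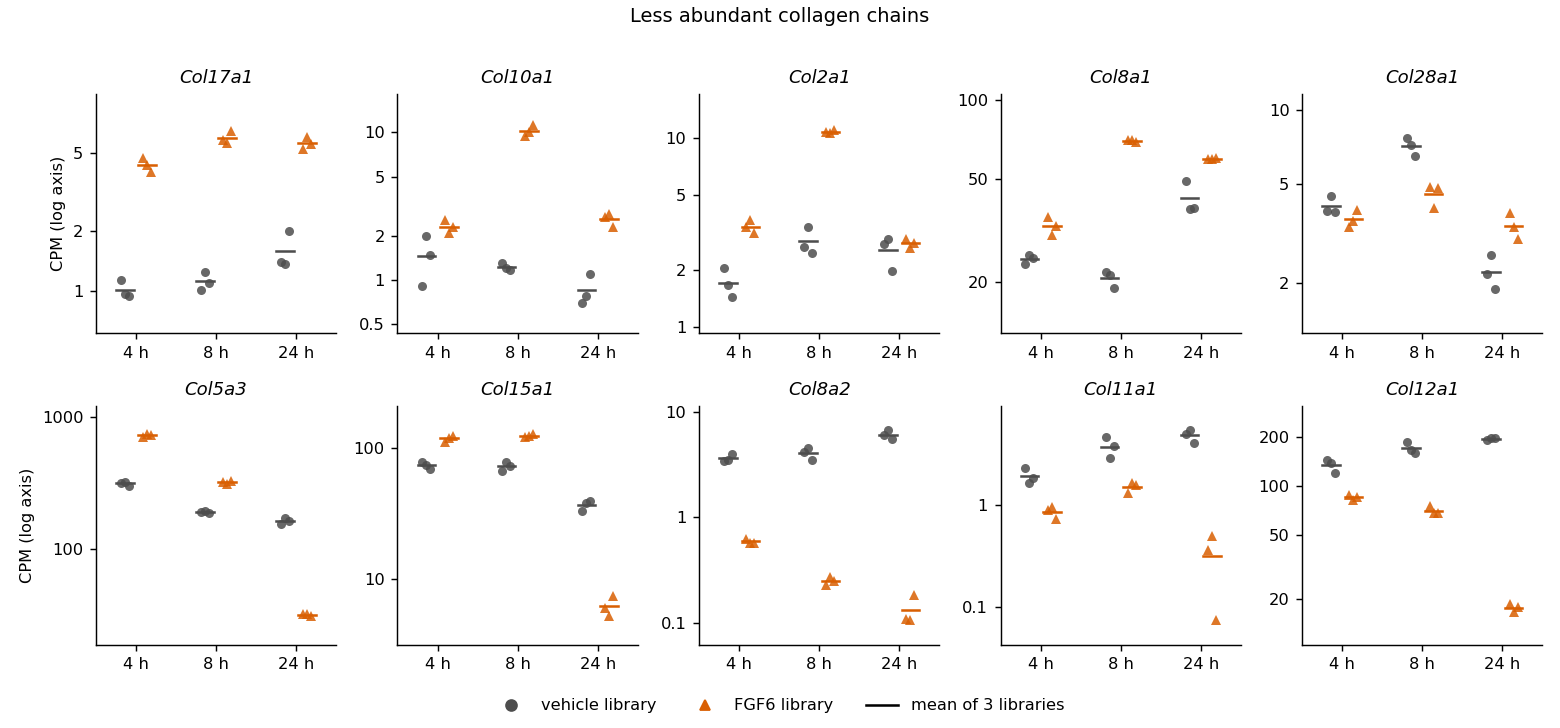
CPM (log axis, its range set per panel) of 10 less abundant collagen chains in each library at 4, 8, and 24 h, with group means as lines. Col17a1, Col10a1, and Col8a1 lie above vehicle with FGF6 at every time, Col5a3 and Col15a1 cross from above to below, and Col8a2, Col11a1, and Col12a1 lie below at every time.

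Col17a1, a transmembrane collagen of hemidesmosomes, measured 1.14, 0.958 and 0.935 CPM in Veh 4 h and 4.696, 4.37 and 4.02 CPM in FGF6 4 h. In the 24 h libraries the values were 1.401, 1.36 and 2.02 CPM with vehicle and 5.22, 6.04 and 5.54 CPM with FGF6. All FGF6 libraries were higher at each time, and the log2 fold changes were 2.11 ± 0.16, FDR 2.81e-11, 2.41 ± 0.16, and 1.84 ± 0.15. Epithelial cells are its usual source, and the epithelial markers Epcam, Cdh1, and Krt8 summed to 0.168 to 0.420 CPM in Veh 24 h and to 0.766 to 1.395 CPM in FGF6 24 h. Most of the sum in FGF6 24 h was Krt8, with means of 0.126 CPM with vehicle and 0.907 CPM with FGF6. Epcam and Cdh1 had at most 5 and 10 counts in a library, were not tested, and overlapped between the groups at 24 h. Of the other transmembrane collagens, Col23a1 passed at 8 h (0.78 ± 0.32, FDR 0.0322) with groups that overlapped, and Col13a1 and Col25a1 were not tested.

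Of the multiplexins, whose C-terminal ends can be released as fragments, Col15a1 turned as Col5a3 did. It measured 78.2, 73.7 and 68.9 CPM in Veh 4 h and 111, 119.8 and 124 CPM in FGF6 4 h. At 24 h it measured 32.8, 38.1 and 39.7 CPM with vehicle and 6.02, 5.22 and 7.45 CPM with FGF6, and the groups were apart in both cases. The log2 fold changes were 0.68 ± 0.066, 0.77 ± 0.066, and −2.57 ± 0.096, FDR 4.60e-18, and the effects at 24 and 8 h differed by −3.34 ± 0.12, FDR 2.15e-17. Col18a1, the source of endostatin, barely moved. It measured 71.04, 74.97 and 74.1 CPM in Veh 24 h and 71.6, 74.4 and 77.2 CPM in FGF6 24 h, with overlap. Its log2 fold changes were 0.16 ± 0.037, FDR 5.86e-04, −0.11 ± 0.038, FDR 0.0143, and 0.02 ± 0.038, FDR 0.652. The call at 8 h was lost with DESeq2 (FDR 0.135), without a filter on low counts (FDR 0.0624), and with the libraries of the time points compared alone (FDR 0.0675), and the call at 4 h with library sizes alone (FDR 0.186). It was also lost at 8 h without Veh 8 h library 1 (FDR 0.0534) or FGF6 8 h library 3 (FDR 0.234).

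Of the 9 FACIT collagens, 5 were tested, of which none rose at an FDR under 0.05 at any time and 2, 3, and 4 fell at 4, 8, and 24 h. Of all tested genes, 28.6, 32.4, and 35.9% rose and 34.2, 38.4, and 37.9% fell at those times. Col12a1, which links fibrils to the matrix around them, measured 190.2, 197 and 195 CPM in Veh 24 h and 18.6, 16.7 and 17.8 CPM in FGF6 24 h. The values of log2 fold change were −0.65 ± 0.059, −1.28 ± 0.06, and −3.46 ± 0.07, FDR 1.33e-23. Col16a1, the FACIT chain with the highest level per length, measured 298, 319.8 and 312 CPM in Veh 24 h and 137, 143 and 142 CPM in FGF6 24 h (−1.14 ± 0.034, FDR 4.41e-20). Col9a3 (−1.57 ± 0.28) and Col20a1 (−0.90 ± 0.28) fell at 24 h from vehicle levels of at most 2.41 CPM. Col9a3 shares 234 exonic bases with Tcfl5 on the opposite strand.

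Col7a1, the chain of anchoring fibrils, fell at 24 h (−0.83 ± 0.099, FDR 4.03e-08) and did not pass at 4 and 8 h. Col28a1, a collagen of peripheral nerve, measured 7.67, 7.22 and 6.504 CPM in Veh 8 h and 4.88, 4.03 and 4.85 CPM in FGF6 8 h. The 24 h values were 2.17, 2.59 and 1.89 CPM with vehicle and 3.83, 3.36 and 3.01 CPM with FGF6. It was thus lower at 8 h (−0.64 ± 0.12) and higher at 24 h (0.60 ± 0.15, FDR 9.88e-04), and the effects differed by 1.24 ± 0.19, FDR 9.99e-06.

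Whether the FGF6 effect differed between time points was tested for every gene. Between 8 and 4 h, the effect was higher at 8 h for 4 collagens and lower for 15, where 15.5 and 15.1% of all tested genes were so. The 4 were Col2a1, Col3a1, Col8a1, and Col10a1. Between 24 and 4 h it was higher at 24 h for 2 (Col10a1 and Col28a1) and lower for 24, where 28.3 and 25.2% of all tested genes were so. Without Veh 4 h library 2, 1 was higher. Between 24 and 8 h it was higher for 2 (Col27a1 and Col28a1) and lower for 24, where 22.6 and 22.5% of all tested genes were so.

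The vehicle cells also changed with time in culture. From 4 to 24 h with vehicle, 15 collagens rose and 13 fell, while 30.9 and 30.0% of all tested genes did so. Col3a1 (1.44 ± 0.035), Col11a1 (1.34 ± 0.21), Col4a5 (0.98 ± 0.033), and Col1a2 (0.86 ± 0.041) rose, and Col27a1 (−2.43 ± 0.085), Col4a2 (−1.47 ± 0.032), Col4a1 (−1.23 ± 0.025), and Col5a3 (−0.95 ± 0.037) fell. Fibrillar collagens thus grew from 32.9 to 45.0% of the collagen counts with vehicle while basement membrane collagens shrank from 23.7 to 9.06%. With FGF6 the fibrillar share was 24.3, 28.2, and 30.8% at 4, 8, and 24 h, and the basement membrane share 27.6, 20.5, and 15.6%.

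The order of the chains changed as well. Per kilobase of coding transcript, the highest chain in Veh 24 h was Col6a1 at 1189 ± 61.7 CPM per kb (SD, n = 3), followed by Col1a2 at 784 ± 30.5 and Col6a2 at 767 ± 41.2, which did not differ beyond their spread, and by Col1a1 at 524 ± 25.5, Col3a1 at 312 ± 15.2, and Col6a3 at 278 ± 12.3. In FGF6 24 h Col6a3 was first at 240.3 ± 7.75 CPM per kb, followed by Col6a1 at 142 ± 7.35, Col3a1 at 116 ± 2.69, Col1a2 at 107 ± 8.19, and Col4a1 at 104 ± 2.37, of which neither Col3a1 and Col1a2 nor Col1a2 and Col4a1 differed beyond their spread. Per kilobase of the union of exons, the order in Veh 24 h was Col6a1 (1113 CPM per kb), Col1a1 (473), Col6a2 (364), and Col1a2 (337), the last 2 with overlap. In FGF6 24 h it was then Col6a3 (203 CPM per kb), Col6a1 (133), Col4a1 (92.3), Col1a1 (67.6), and Col3a1 (65.95), the last 2 again with overlap. Col6a1 in Veh 24 h and Col6a3 in FGF6 24 h were thus first with both lengths, and the order of Col1a1 and Col1a2 was not the same. Col6a3 made up 11.3% of the collagen counts in Veh 24 h and 35.6% in FGF6 24 h.

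Genes that modify, export, cleave, cross-link, bind, and break down collagen were followed in 8 lists with 102 genes, of which 91 were tested. At an FDR under 0.05, 29 rose and 43 fell at 4 h, 25 rose and 55 fell at 8 h, and 26 rose and 57 fell at 24 h. Of all tested genes, 28.6, 32.4, and 35.9% rose and 34.2, 38.4, and 37.9% fell at these times. The counts of each list below are to be read against the shares at 24 h. Of 14 tested genes of hydroxylation and glycosylation, 2 rose and 11 fell at 24 h. That list holds partners of the enzymes, such as Crtap and Ppib, beside the enzymes themselves. Plod2, a lysyl hydroxylase, measured 104, 116 and 122 CPM in Veh 24 h and 201, 189.6 and 182 CPM in FGF6 24 h (0.74 ± 0.05, FDR 6.26e-13). Plod3 also rose (0.12 ± 0.031), while P4ha3, a subunit of prolyl hydroxylase, fell (−2.55 ± 0.091), as did P3h2 (−1.07 ± 0.21). P4ha1, the main catalytic subunit of prolyl hydroxylase, measured 307, 337 and 337 CPM in Veh 24 h and 357, 336 and 338 CPM in FGF6 24 h (0.071 ± 0.04, FDR 0.113).

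Of 13 tested genes of folding and export, 1 rose and 9 fell at 24 h. Serpinh1, the collagen chaperone HSP47, measured 1734, 1818 and 1758 CPM in Veh 24 h and 653, 682 and 701 CPM in FGF6 24 h (−1.38 ± 0.03, FDR 5.79e-23). Creb3l1, a transcription factor released from the endoplasmic reticulum that drives collagen genes, had means of 43.4 and 10.4 CPM (−2.06 ± 0.062), and Mia2, an export factor, had means of 78.2 and 108 CPM (0.47 ± 0.037).

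Of 8 tested genes of propeptide cleavage, 3 rose and 4 fell at 24 h, where 35.9% of all tested genes rose and 37.9% fell. Adamts2, which cuts the N-propeptides of fibrillar collagens, fell from 135, 151 and 138 to 27.98, 25.7 and 32.2 CPM (−2.31 ± 0.06, FDR 2.19e-21). Pcolce, an enhancer of C-propeptide cleavage, fell (−1.41 ± 0.029), while its relative Pcolce2 (1.84 ± 0.21) and the protease Tll1 (0.67 ± 0.22) rose from means of 1.03 and 1.398 CPM. Of 6 tested cross-linking enzymes, 5 fell at 24 h. Lox, the lysyl oxidase, measured 4140.3, 4486 and 4624 CPM in Veh 24 h and 361, 328 and 359 CPM in FGF6 24 h (−3.66 ± 0.041, FDR 2.65e-28), and it had fallen already at 4 h (−0.77 ± 0.037) and at 8 h (−2.01 ± 0.038). Loxl2 also fell (−2.51 ± 0.12).

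Of 14 tested proteoglycans and other fibril partners, 3 rose and 11 fell at 24 h. Ogn (osteoglycin) measured 88.9, 103 and 106 CPM in Veh 24 h and 1.82, 1.82 and 2.17 CPM in FGF6 24 h (−5.68 ± 0.12, FDR 1.57e-23), and Aspn (asporin) measured 34.6, 34.6 and 36.03 CPM in Veh 24 h and 0.109, 0.321 and 0.367 CPM in FGF6 24 h (−7.02 ± 0.17, FDR 3.59e-22). Dcn (decorin), a proteoglycan of the same family, rose from 21.2, 20.96 and 21.9 to 162, 121 and 114 CPM (2.63 ± 0.11, FDR 1.72e-17), and Lum (lumican) rose by 0.59 ± 0.18. Members of this small family thus moved in opposite directions.

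Of 8 tested collagen receptors, 3 rose and 5 fell at 24 h, where 35.9% of all tested genes rose and 37.9% fell. The integrin subunit Itga2 rose from 0.2102, 0.513 and 0.673 to 4.596, 5.501 and 4.48 CPM (3.40 ± 0.29, FDR 6.46e-11), and Itga10 rose by 0.61 ± 0.23, while Itga1 (−1.93 ± 0.12) and the receptor kinase Ddr1 (−1.56 ± 0.044) fell. Of 13 tested genes of collagen breakdown, 4 rose and 9 fell at 24 h. That list also holds Timp1, Timp2, and Timp3, inhibitors of matrix metalloproteinases, so the counts are not to be read as degrading enzymes alone. Ctsl, a lysosomal protease, rose from 456, 448 and 456 to 3257, 3159 and 3132 CPM (2.81 ± 0.032, FDR 2.65e-28), and Mmp13, a collagenase, from 1.09, 1.12 and 0.967 to 12.9, 12.3 and 11.5 CPM (3.52 ± 0.13, FDR 3.36e-18). Mmp2, a gelatinase, fell from 297, 284 and 273 to 21.4, 20.3 and 21.7 CPM (−3.75 ± 0.06, FDR 1.22e-25), and Mmp15 also fell (−3.52 ± 0.14).

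Of 15 tested genes tied to collagen transcription, mostly of the TGF-beta pathway, 10 rose and 3 fell at 24 h. The list holds inhibitors of that pathway (Smad7, Ski, and Skil) beside activators, so the counts give no direction for collagen transcription. Tgfb1, the ligand best known to raise collagen transcription, had means of 48.7, 30.02, and 37.7 CPM with vehicle and 109, 96.4, and 52.98 CPM with FGF6 at 4, 8, and 24 h (1.16 ± 0.062, 1.68 ± 0.065, and 0.49 ± 0.066, FDR 3.03e-07). Ccn2, a target of that pathway, rose by 0.71 ± 0.072, 1.43 ± 0.082, and 0.57 ± 0.093. Tgfbr1 (1.15 ± 0.044) and Skil, an inhibitor of SMAD signaling (1.33 ± 0.045), rose at 24 h, while Tgfb2 (−2.71 ± 0.13) and Tgfbr2 (−1.05 ± 0.036) fell.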

How the data were processed

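RNA from 18 samples, 3 libraries in each of 6 groups, was sequenced. The authors aligned the reads to GRCm38 with STAR, counted them with Subread featureCounts, and deposited the raw counts, which were not normalized. The annotation release and the strand setting are not given in the sources used here, so genes that share exonic bases are uncertain. The groups came from the labels, and each column matched the title of a sample.

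Symbols and positions came from GENCODE M21, which held 98.5% of the identifiers. In edgeR 4.0.16 (R 4.3.3), genes were kept with filterByExpr, counts were scaled with TMM factors, and a quasi-likelihood model with a mean per group was fitted over all 18 libraries. FDR values follow Benjamini and Hochberg over all genes tested, with an FDR under 0.05 as the threshold and an FDR under 0.25, which the study used, as an alternative. The error of a log2 fold change is the standard error implied by the F statistic. Levels per length use the coding transcript with the longest coding sequence, chosen after the annotation was seen, with the union of all annotated exons as an alternative added then. With totals of 24327816 to 33471980, a floor of 3 counts was 0.0905 to 0.126 CPM per library, and floors and intervals cover counting error only.

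Values are given for 10 major chains, for the 4 largest increases and 4 largest decreases at each time (FDR under 0.05, no overlap, a mean of at least 1 CPM), and for members that changed direction. Pathway genes are the 2 largest changes of each list in each direction at 24 h by the same conditions, with Serpinh1, Lox, P4ha1, Plod2, Tgfb1, and Ccn2 added. Values of further collagens were added after they were seen. The members and lists were chosen with earlier results of these data known.

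Tested on simulated counts of 14670 genes for FGF6 against vehicle at 24 h, the fit recovered 85 of 99 genes changed 2-fold and 64 of 98 changed 1.41-fold, with 8 false calls. In the data 11115 of 15071 tested genes were called at 24 h, many with larger changes. The simulation therefore does not check the scaling or the false calls under changes that wide. The correlations of the deviations of same-numbered libraries at the same time lay between −0.028 and 0.049. With so few libraries per group, these values cannot show whether same-numbered libraries share a culture or a batch. Same-numbered libraries of different times were not compared. The alternatives were limma-voom 3.58.1, DESeq2 1.42.0, upper-quartile factors, library sizes alone, no filter, at least 10 counts in every library, a replicate block, the libraries of the times compared alone, and leaving out each library.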

Additional observations from a re-analysis of the deposited data

Results flagged for a closer look

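The FGF6 effect on collagens differed between time points by the interaction test of edgeR (FDR under 0.05). It was higher at 8 than at 4 h for 4 collagens and lower for 15, against 15.5 and 15.1% of all tested genes. It was higher at 24 than at 4 h for 2 (1 to 3 with a library left out) and lower for 24, against 28.3 and 25.2%, and higher at 24 than at 8 h for 2 and lower for 24, against 22.6 and 22.5%.

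6 of 33 tested collagens (18.2%) were called in opposite directions at different times, as were 8.19% of all tested genes. For Col18a1, the call at 8 h (−0.11) was lost with DESeq2 and in other alternatives given above. The test of the difference passed for each of the 6. Calls in opposite directions in the same fit make this likely in advance, so it adds no separate support. For Col5a3 the log2 effect at 24 h differed by −3.57 from that at 4 h and by −3.12 from that at 8 h. For Col15a1 the differences were −3.25 and −3.34, and for Col6a3 −0.91 and −0.995. Col4a1 differed by −0.29 between 8 and 4 h and by −1.21 between 24 and 4 h, Col18a1 by −0.27 between 8 and 4 h, and Col28a1 by 1.24 between 24 and 8 h.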

How the results depend on the processing

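No call of a named collagen reversed its direction. Of the values of named collagens under other settings, 578 kept their side of the threshold, 6 passed it where they had not, and 4 no longer passed. With a library left out these numbers were 390, 1, and 5. Direction was compared only where a value passed. Col4a2 at 4 h, which did not pass in the main fit, ranged from −0.038 to 0.0996 over the settings. At 24 h, 20 to 26 collagens fell and 4 rose under every setting, where 27 collagens were tested with at least 10 counts in every library and 44 with no filter. On the TMM-scaled total the collagen share moved by −0.118 percentage points at 4 h and −0.581 at 8 h, against −0.263 and −0.688 of all counts. With a library left out, 1 to 3 collagens had a higher effect at 24 than at 4 h. Library sizes alone moved the median log2 fold change of all genes at 4 h from −0.048 to −0.150 and the share of calls that rose from 45.5 to 33.3%, and the share of higher effects at 24 against 4 h from 52.9 to 63.3%. With the replicate number as a block, 4 collagens rose and 24 fell at 24 h, as without it, and no other count of collagen calls changed. With the union of exons as the length, the chain ratios and most levels per length moved, as given with them. The few counts of Col8a2, Col11a1, and Col6a4 with FGF6 at 24 h limit the precision of their fold changes.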
